A study of Homo sapiens with 9 samples.

Results

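The comparison described here sets the 3 libraries numbered replicate 2 against the 3 numbered replicate 3, so that 6 of the series' 9 libraries enter it and the 3 numbered replicate 1 do not. The libraries were chosen by the number that ends their titles, and each side holds 1 library labelled NTC siRNA, 1 labelled TLX1 siRNA1 and 1 labelled TLX1 siRNA2. All are poly(A)-selected RNA of ALL-SIL, a human T-cell acute lymphoblastic leukaemia line, whose cells were electroporated with the siRNA. The labels give no time after electroporation, and they do not say whether a replicate number stands for a culture, a day, an extraction or a sequencing run. Adjusted p-values rest on how far the differences within the 3 siRNA labels disagree, a spread that may in part be technical. The fit took that spread from a trend shared by all genes. The p-values and standard errors (SE) thus do not reflect a gene's own scatter. Nor do they measure how replicate numbers vary in general, because each side holds a single replicate number. The siRNA labels are balanced across the sides and the label was a term of the model, so the comparison describes what differed between libraries given the same siRNA label under 2 replicate numbers. Values per library are given below in the order NTC, siRNA1, siRNA2, as CPM, the count of a gene scaled to the library's total over genes with TMM factors, and differences are replicate 3 minus replicate 2 on the log2 scale.

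Cells that divide move through waves of transcription. E2F factors drive the genes of DNA synthesis around the entry into S phase, and MYB-MuvB complexes with FOXM1 drive the genes of mitosis, so the balance of both gene sets in bulk RNA moves with how a culture is spread over the cycle. Growth rate is also tied to MYC, which drives nucleolar genes that make ribosomes, and crowding or poor oxygen supply brings up genes under hypoxia-inducible factors. ALL-SIL cells carry features of cortical thymocytes, the stage that expresses CD1 proteins and the recombinase that rearranges antigen receptor genes. In bulk RNA, a change in the number of cells in a state and a change in RNA per cell cannot be told apart.

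Gene counts ran from 58305492 to 99524663 per library, and 75.5 to 77.6% of reads fell in genes. TLX1, the homeobox oncogene named in 2 of the 3 labels, stood at 167, 457 and 231 CPM in replicate 2 and at 183, 387 and 179 CPM in replicate 3. The libraries labelled siRNA1 were thus above those labelled NTC under both numbers, against the label, and they are called here by their label only. The difference of TLX1 between the replicate numbers did not pass the test (log2 difference -0.16, SE 0.08, edgeR quasi-likelihood adjusted p = 0.181). It passed when either or both NTC libraries were left out, with -0.31 without both. Of the T-lineage markers, CD3D lay between 459 and 607 CPM and CD1A between 31.0 and 91.7 CPM, while PTCRA, the pre-T-cell receptor alpha chain, did not exceed 0.774 CPM. Markers of other cell types were present at different levels, and their part in the results below was not tested. The 12 epithelial and fibroblast markers summed to 295 to 319 CPM in replicate 2 and 272 to 279.8 CPM in replicate 3, most of it VIM, the intermediate filament vimentin, at 269, 297 and 278 CPM and 249, 247 and 253 CPM. The 14 B cell markers summed to 33.99 to 54.1 CPM and 31.5 to 46.6 CPM. The B cell gene MS4A1 and the myeloid genes S100A8 and S100A9 had no count in any of the 6 libraries, and the 15 myeloid markers summed to 1.27 to 1.71 CPM in replicate 2 and 1.20 to 1.62 CPM in replicate 3. The 18 NK and cytotoxic markers summed to 239 to 348 CPM and 192 to 306 CPM, nearly all of it NKG7, which stood at 227, 334 and 246 CPM and 205, 292 and 179 CPM. Of the 8 NK and cytotoxic markers tested, 1 was higher and 3 lower in replicate 3, against 9.47% and 8.25% of all genes tested. Of 6 B cell markers tested 2 were lower and of 4 myeloid markers 1, and none was higher. None of the 3 epithelial and fibroblast markers tested passed.

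A total of 18171 genes passed the filter on low counts, and 3219 passed the test at an adjusted p under 0.05 (edgeR quasi-likelihood, Benjamini-Hochberg). Of these, 1720 were higher in replicate 3 (9.47% of the genes tested) and 1499 were lower (8.25%). Most differences were small: 131 genes were over 2-fold higher and 75 over 2-fold lower, and the median size among called genes was 0.39 on the log2 scale against 0.17 over all genes tested. The sign was the same within all 3 siRNA labels for 1651 of the higher and 1442 of the lower genes, against 48.3% of all genes tested. With library size alone as the scaling, 3411 genes passed and the split became 2369 higher and 1042 lower. The split was the other way by DESeq2, with 1071 higher and 1236 lower. It was also the other way with GC and length offsets, with 2169 higher and 2531 lower. Without the label term 706 genes passed, and without both libraries labelled siRNA1 1001 passed; leaving out a single library labelled siRNA1 gave 988 or 990, and a single one labelled siRNA2 gave 1820 or 2050. The direction held in each of these for every named gene that had passed, while the number of calls did not.

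More long noncoding RNA genes were called higher than lower. Of 3261 long noncoding RNA genes tested, 363 were higher and 131 lower. The 12269 protein-coding genes split evenly, with 1181 higher (9.63%) and 1245 lower (10.1%), against 9.47% and 8.25% of all genes tested. Among intergenic noncoding genes annotated as lincRNA, 13.7% of 1116 were higher and 3.85% lower. Among 1576 antisense genes, 8.95% were higher and 3.55% lower, so that the share of antisense genes called higher was under the 9.47% of all genes tested and the share called lower was under their 8.25%. The library kit does not mark strand, per the labels' protocols, so reads of an antisense gene and of its partner cannot be told apart. The share of reads that fell in no annotated feature moved as well: it was 9.21, 8.53 and 8.42% in replicate 2 and 8.33, 10.2 and 10.3% in replicate 3, lower in the NTC pair and higher in both other pairs. Its part in the noncoding counts was not tested.

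The 3 pairs of libraries share no sample, so each can be set beside calls made without it. When both NTC libraries were left out, 1339 genes passed as higher and 1096 as lower. Of those that were also tested in the fit to all 6 libraries, 1296 were called higher from the siRNA1 and siRNA2 pairs, and 1077 of these (83.1%) were also higher in the NTC pair, with a median log2 difference there of 0.30 against 0.61 in the pairs that made the call. Of the same kind, the 1091 genes called lower were lower in the NTC pair for 982 (90.0%), with a median of -0.23 against -0.45. Of all genes tested, 66.2% of those with a higher fit and 65.9% of those with a lower fit had the same sign in the NTC pair. Left-out siRNA1 libraries shared the direction of 530 of 532 higher genes (median 0.47 there against 0.53 in the fit) and 448 of 467 lower genes (-0.44 against -0.56). Left-out siRNA2 libraries shared that of 1122 of 1204 higher genes (0.37 against 0.41) and 940 of 979 lower genes (-0.38 against -0.34). Of all genes tested with a higher or a lower fit, 74.0% and 68.1% shared its sign in the left-out siRNA1 pair. In the left-out siRNA2 pair these shares were 66.9% and 68.7%. The calls made without a pair thus mostly had the same sign in that pair. The siRNA1 and siRNA2 pairs both cross a second division of the libraries, by strand column share, which is given below. Its part in the shared signs was not tested. The genes were selected on the fitted values, so a smaller median in the left-out pair is no measure of a smaller difference there. Across the 18171 genes, the differences of the pairs correlated with Pearson's r of 0.37 between NTC and siRNA1, 0.33 between NTC and siRNA2 and 0.49 between siRNA1 and siRNA2, values across genes that are no independent replicates.

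**Figure D1:**
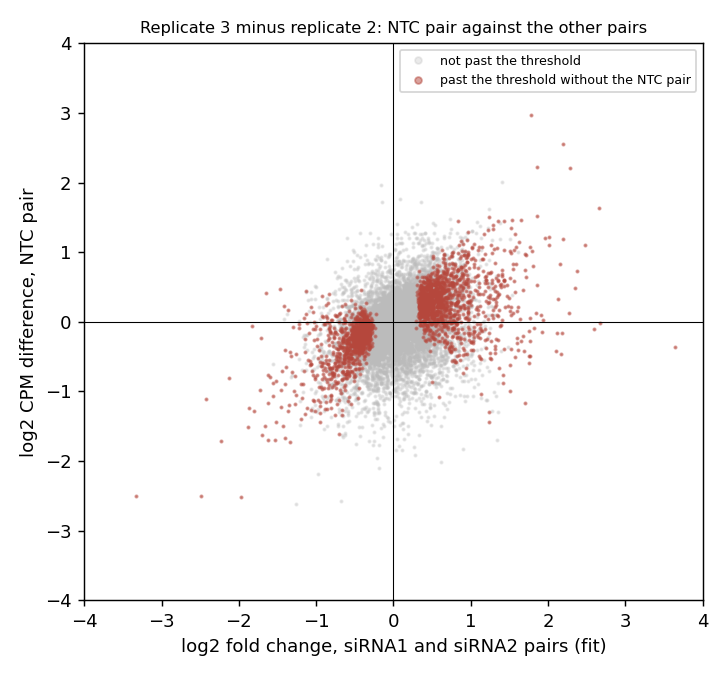
Each point is a gene: the x axis is the log2 fold change fitted to the siRNA1 and siRNA2 pairs alone, the y axis the log2 CPM difference within the NTC pair, and red points passed the threshold in the fit without the NTC pair. Most red points lie at the lower left and upper right, with 83.1% of the higher and 90.0% of the lower calls sharing their sign; 1 gene lies outside the axes.

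Genes of mitosis were lower in replicate 3. Of 48 tested members of a list of G2/M and mitotic genes, 40 fell and none rose, with a median log2 difference of -0.37 against 0.01 over all genes tested and against the 8.25% of genes called lower. CDC20, the activator of the anaphase-promoting complex, stood at 208, 261 and 227 CPM in replicate 2 and 134, 145 and 113 CPM in replicate 3. Its 3 values in replicate 3 lay below all 3 in replicate 2 (log2 difference -0.83, SE 0.08, edgeR adjusted p = 4.33e-20). PLK1, the kinase that drives mitotic entry and spindle assembly, went from 90.9, 99.9 and 102 CPM to 57.4, 61.7 and 48.6 CPM (-0.81, SE 0.09). KIF20A, a kinesin of the cleavage furrow, went from 91.9, 106 and 105 CPM to 60.8, 68.8 and 57.4 CPM (-0.70, SE 0.08). ASPM, a spindle pole protein, went from 629, 718 and 636 CPM to 408, 439 and 466 CPM (-0.59, SE 0.08). As with CDC20, none of these 3 genes overlapped between the groups. In all, 39 of the 48 members did not overlap and lay lower, against 13.2% of all genes tested.

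The fall was spread over the parts of the mitotic machinery, in subgroups formed after the values were seen. All 3 genes that work with the anaphase-promoting complex fell, 6 of 7 kinesins, 6 of 7 mitotic kinases, 5 of 6 kinetochore and centromere genes, and 5 of 7 among the cyclins, CDK1, CKS2 and CDC25 phosphatases. CDK1 itself, the kinase that B cyclins activate, stood at 196, 192 and 173 CPM and 188, 179 and 201 CPM and did not pass (log2 difference 0.02, edgeR adjusted p = 0.925). CCNB1, cyclin B1, went from 206, 212 and 189.8 CPM to 137, 145 and 136 CPM (-0.54, SE 0.08). MAD2L1, a spindle checkpoint protein, had the largest positive difference of the list (0.11, edgeR adjusted p = 0.405), which did not pass. Within the labels the median of the 48 was -0.30 in the NTC pair, -0.39 in the siRNA1 pair and -0.41 in the siRNA2 pair, with 47, 47 and 45 members below 0. Without both libraries labelled siRNA1 23 members passed, without either alone 22, and without the label term 25, all of them lower.

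Promoter sequence was read for 34 of the 40 lower mitotic genes, from RefSeq windows on GRCh38.p14 that run from 250 bases before to 50 after the start of the gene. The core of the CHR element that MYB-MuvB complexes bind, TTTGAA on either strand, was found in 22 of them (64.7%) and in 15.2% of all 35116 windows. It was also found in 7 of the 8 members with a window that did not fall, so it does not separate the genes that moved from those that did not. The stretches of CDC20 and PLK1 are shown because these genes had the smallest p of the list. Capitals mark the motif, and each is written 5′ to 3′ on the strand of the gene, at chr1:43358904-43358933 (plus strand) for CDC20 and chr16:23678848-23678877 (plus strand) for PLK1.
CDC20: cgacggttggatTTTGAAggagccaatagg
PLK1: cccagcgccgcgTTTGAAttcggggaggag

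Genes of DNA replication moved the other way. Of 43 tested members of a list of G1/S and replication genes, 28 rose in replicate 3 and none fell, with a median log2 difference of 0.30 and against 9.47% of all genes called higher. TK1, the thymidine kinase of S phase, stood at 109, 115 and 95.9 CPM in replicate 2 and 209, 208 and 154 CPM in replicate 3, with no overlap (log2 difference 0.83, SE 0.08, edgeR adjusted p = 5.94e-20). CDC45, a part of the replicative helicase, went from 85.4, 95.9 and 91.5 CPM to 133, 125 and 117 CPM (0.46, SE 0.08). RRM2, the regulated subunit of ribonucleotide reductase, went from 255, 282 and 279.9 CPM to 381, 349 and 366 CPM (0.43, SE 0.08). For each of these the lowest replicate 3 library was above the highest replicate 2 library, as it was for 32 of the 43 members against 13.4% of all genes tested. PCLAF, which binds the sliding clamp PCNA and was named for its small p and not from the list, went from 57.5, 43.5 and 38.5 CPM to 90.0, 86 and 102 CPM (1.01, SE 0.09).

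The rise was uneven within replication. Of the genes for nucleotide supply 4 of 5 rose, with a subgroup median of 0.42, and 3 of the 4 CDC45 and GINS genes rose, with a median of 0.36. Of MCM2 to MCM7 and MCM10 only MCM4 and MCM10 passed, with a subgroup median of 0.18. MCM10, which loads polymerases at origins, went from 75.3, 77.9 and 80.9 CPM to 112, 97.3 and 113 CPM (0.46, SE 0.08). MCM4, a helicase subunit close to the threshold, went from 945, 956 and 971 CPM to 1202, 1046 and 1119.8 CPM (0.23, SE 0.08, edgeR adjusted p = 0.0399), and it no longer passed when any 1 library was left out, with RLE scaling, without the filter or without the label term (adjusted p up to 0.257). MCM7, another subunit of the same ring, stood at 879.8, 859 and 853 CPM and 1014, 927 and 841 CPM, overlapping and not past the test. The list's median was largest in the NTC pair, at 0.38 with all 43 members above 0, and was 0.16 in the siRNA1 pair and 0.29 in the siRNA2 pair. Without both NTC libraries 13 members passed, without either alone 14, and without the label term 16, all higher. Whether the pairs differ in this was not tested.

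An E2F site, written as TTTCCCGC or TTTGGCGC on either strand, was found in the windows of 12 of 24 higher genes (50%), 7 of 12 other members and 2.27% of all windows. Among eligible higher members that hold the site before the gene's start, DTL and POLA1 had the smallest p. DTL is an adaptor of the ubiquitin ligase that clears the licensing factor CDT1, and POLA1 is the catalytic subunit of the priming polymerase. Their stretches are shown with the site in capitals, which for POLA1 lies on the opposite strand. They lie at chr1:212035729-212035747 (plus strand) and chrX:24693770-24693799 (plus strand) of GRCh38.p14, in RefSeq, and the first ends at the gene's start.
DTL: cgtgacgtcagTTTGGCGC
POLA1: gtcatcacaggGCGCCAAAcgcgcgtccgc
DTL stood at 144, 148 and 139 CPM in replicate 2 and 199.8, 179 and 198 CPM in replicate 3 (0.42, SE 0.08). POLA1 went from 110.4, 109 and 113 CPM to 151, 132 and 150.0 CPM (0.38, SE 0.08). The groups did not overlap for either gene.

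**Figure D2:**
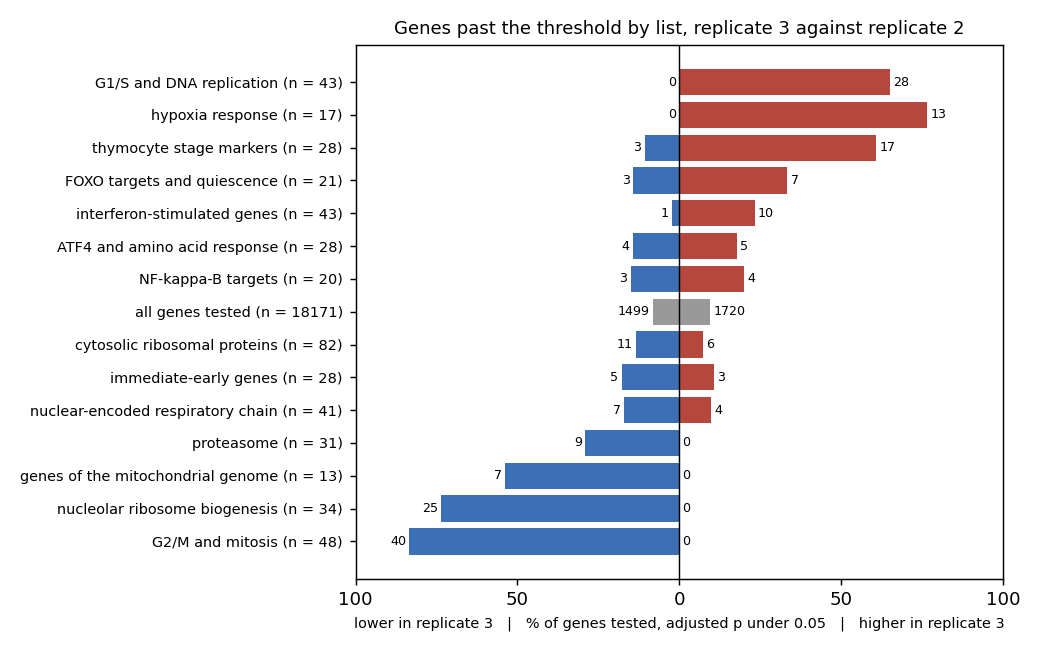
Bars give the share of each list's tested genes that passed the threshold, to the right for higher and to the left for lower in replicate 3, with the number of genes at the bar's end and the grey bar for all 18171 genes. Replication and hypoxia genes have bars to the right only (28 and 13 genes), and mitotic, nucleolar, proteasome and mitochondrial genome genes to the left only (40, 25, 9 and 7 genes).

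Markers of thymocyte stages, from a list that mixes early, cortical and mature ones, were mostly higher in replicate 3. Of 28 tested members 17 rose and 3 fell, with a median of 0.45, against 9.47% and 8.25% of all genes. Only 9 of the 28 lay above without overlap and 1 below, against 13.4% and 13.2% of all genes. All 5 CD1 genes rose; these encode the lipid-presenting molecules of cortical thymocytes. CD1A stood at 42.7, 31 and 46.2 CPM in replicate 2 and 91.7, 54.2 and 85.4 CPM in replicate 3 (log2 difference 0.93, SE 0.09, edgeR adjusted p = 3.93e-24). CD1B went from 102, 74.3 and 94.1 CPM to 167, 122 and 150.5 CPM (0.70, SE 0.08). Neither gene overlapped between the groups, and within each group the library labelled siRNA1 was the lowest for both. CD38, an ectoenzyme of early and activated lymphocytes, went from 58.7, 38.2 and 58.7 CPM to 105, 79.2 and 122 CPM (0.98, SE 0.09) without overlap.

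The recombination genes rose within each label but overlapped between the groups, and they were lowest in the libraries labelled siRNA1. RAG1, RAG2 and DNTT, named after their values were seen, encode the recombinase and the polymerase that adds untemplated bases. RAG1 went from 42.9, 18.2 and 38.4 CPM to 61.6, 23.6 and 57.8 CPM (0.50, SE 0.09). RAG2 went from 12.8, 6.19 and 11.9 CPM to 22.5, 8.16 and 19.7 CPM (0.66, SE 0.10). DNTT went from 30.2, 12.5 and 24.5 CPM to 45.9, 17 and 37.6 CPM (0.56, SE 0.09). The siRNA1 library of replicate 3 thus lay below the NTC and siRNA2 libraries of replicate 2 for RAG1, while every library of replicate 3 was above its own partner.

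Receptors of lymphocyte traffic were among the markers that rose. CCR7, which guides lymphocytes to lymph nodes, went from 13.3, 15.2 and 15.8 CPM to 23.8, 26.7 and 22.6 CPM (0.73, SE 0.09) without overlap. S1PR1, the receptor for egress from the thymus, was low and went from 3.63, 2.86 and 3.92 CPM to 4.32, 5.27 and 5.08 CPM (0.50, SE 0.12), a call lost without either library labelled siRNA1 and without the label term. CCR8 was among the 3 markers that fell (-0.24), with CD7, an early T-lineage receptor (-0.38), and CD44, an adhesion receptor of immature thymocytes (-0.31). Of the 3 coreceptor genes 1 rose, with a subgroup median of 0.02, and CD8A did not pass (-0.22, edgeR adjusted p = 0.0595). The median of the 28 markers was 0.38 in the NTC pair, 0.36 in the siRNA1 pair and 0.32 in the siRNA2 pair. Without the label term 7 rose and none fell, and without both libraries labelled siRNA1 12 rose and 1 fell.

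**Figure D3:**
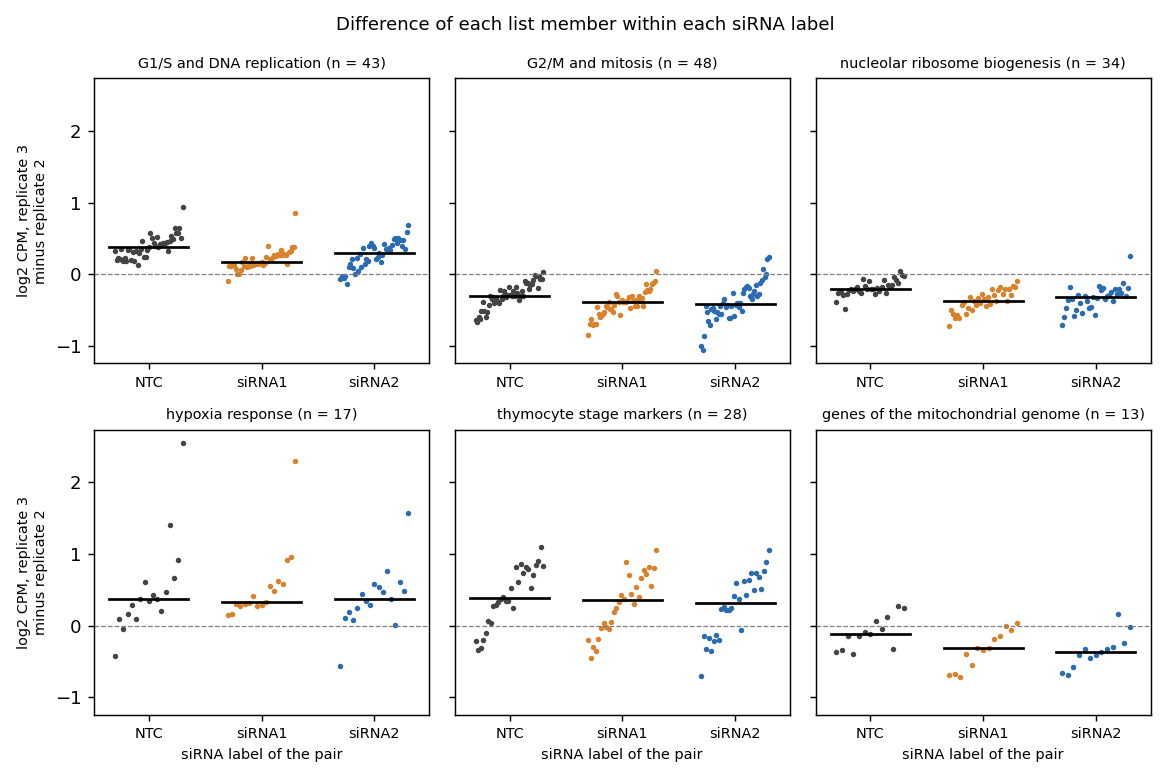
Each point is a list member's log2 CPM difference, replicate 3 minus replicate 2, within the pair of libraries of 1 siRNA label, ordered from left to right by the fit to all 6 libraries; black lines are medians. Replication genes lie above 0 in all 43 cases in the NTC pair, mitotic genes below 0 in 47, 47 and 45 of 48, and the mitochondrial genome's median is -0.11 in the NTC pair against -0.32 and -0.37.

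Genes induced by hypoxia were higher in replicate 3. Of 17 tested members of a list of 20, 13 rose and none fell, against 9.47% and 8.25% of all genes tested. Their median was 0.40, and 10 lay above without overlap, against 13.4% of all genes tested. PFKFB3, which makes the allosteric activator of glycolysis, stood at 25.1, 34.6 and 31 CPM in replicate 2 and 47.4, 66.9 and 43.2 CPM in replicate 3, without overlap (log2 difference 0.78, SE 0.09, edgeR adjusted p = 1.29e-16). ANKRD37, a short ankyrin repeat protein, went from 3.84, 2.95 and 3.46 CPM to 6.09, 5.6 and 5.28 CPM (0.73, SE 0.12). ADM, the peptide hormone adrenomedullin, was close to the detection limit, at 0.0601, 0.153 and 0.113 CPM and 0.467, 0.84 and 0.382 CPM, and had the largest difference of the list (2.39, SE 0.32). VEGFA, the angiogenic growth factor, went from 28.9, 27.3 and 25.6 CPM to 37.4, 36.3 and 32.3 CPM (0.37, SE 0.09), and was named after its value was seen. PFKFB4, the isoenzyme of PFKFB3, showed a difference in 2 pairs and nearly none in the siRNA2 pair, with 6.35, 17.3 and 13.1 CPM in replicate 2 and 16.9, 25.8 and 13.2 CPM in replicate 3 (0.66, SE 0.10). Its call was lost without either NTC library, by DESeq2 and without the label term, and its value ranged from 0.30 to 0.97 over the alternatives.

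The medians of the hypoxia genes within the labels were 0.36, 0.32 and 0.37. Of 21 glycolysis genes 4 rose and 1 fell, against 9.47% and 8.25% of all genes, with a list median of -0.01. Among those that rose was SLC2A3, a glucose transporter, which went from 18, 24.7 and 25.2 CPM to 26.1, 45.7 and 34 CPM (0.62, SE 0.09). DDIT4, an inhibitor of mTORC1 induced by hypoxia and other stress, went from 32.3, 44.6 and 43.7 CPM to 64.3, 99.3 and 63 CPM (0.89, SE 0.09). Without the label term 8 hypoxia genes passed, all higher. The core hypoxia-inducible factor site ACGTG, on either strand, was found in the windows of 4 of 9 higher genes (44.4%), 2 of 3 other members and 21.4% of all windows. ANKRD37 and P4HA1, a subunit of the collagen prolyl hydroxylase (0.43, SE 0.09), are shown. They had the smallest p among eligible higher members that hold the site before the gene's start. The stretches lie at chr4:185396686-185396714 (plus strand) and chr10:73096936-73096964 (minus strand) of GRCh38.p14 in RefSeq, with the motif in capitals, for P4HA1 in its reverse complement.
ANKRD37: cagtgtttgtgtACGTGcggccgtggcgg
P4HA1: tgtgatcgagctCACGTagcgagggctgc

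Genes of ribosome production in the nucleolus were lower in replicate 3. Of 34 tested members of a list of nucleolar ribosome biogenesis genes, 25 fell and none rose, against 8.25% and 9.47% of all genes tested. Their median was -0.30, and 26 of the 34 lay lower without overlap, against 13.2% of all genes tested. RRS1, a ribosome assembly factor, stood at 83.1, 80.7 and 87.9 CPM in replicate 2 and 63.4, 48.8 and 54 CPM in replicate 3 (log2 difference -0.61, SE 0.09, edgeR adjusted p = 2.37e-10). NOP14, which processes the small subunit's RNA, went from 109, 114 and 130.3 CPM to 91.4, 80.7 and 86 CPM (-0.45, SE 0.08). WDR43, another factor of the small subunit, went from 162, 152 and 180.2 CPM to 132, 99.1 and 139.9 CPM (-0.42, SE 0.08). NOP16 went from 37.9, 40.2 and 44.5 CPM to 32.1, 27.4 and 32 CPM (-0.42, SE 0.09). The groups did not overlap for any of the 4. The median of the 34 was -0.20 in the NTC pair, -0.37 in the siRNA1 pair and -0.31 in the siRNA2 pair. In these pairs 33, 34 and 33 of the 34 members lay below 0. The number of calls fell without the siRNA1 pair, as it did over all genes, where 1001 passed in place of 3219. Without that pair 5 members passed, with a median of -0.26. Without either of its libraries alone 4 passed, and without the label term 5, all lower. NOP16 and WDR43 were among those that no longer passed without a library labelled siRNA1.

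MYC, a factor known to drive such genes, was also lower, and whether it had a part in their fall was not tested. MYC stood at 494, 465 and 548 CPM in replicate 2 and 411, 289.6 and 353 CPM in replicate 3, without overlap (log2 difference -0.53, SE 0.08, edgeR adjusted p = 2.70e-08). Its E-box CACGTG was found in the windows of 9 of 19 lower nucleolar genes (47.4%), 3 of 9 other members and 7.26% of all windows. The word is its own reverse complement, and it contains the ACGTG searched for above, so the searches overlap. UTP20 and UTP4, both of the small subunit processome, are shown because they had the smallest p among eligible lower members with an E-box before the start. They lie at chr12:101280083-101280104 (plus strand) and chr16:69132621-69132648 (plus strand) of GRCh38.p14 in RefSeq, each ending at the gene's start, with the E-box in capitals.
UTP20: cttttttccgtcCACGTGaccc
UTP4: agagcgcgcgcgCACGTGgggccggggc
UTP20 went from 92.8, 89.4 and 101 CPM to 76.5, 71.9 and 86.2 CPM (-0.27, SE 0.08). UTP4 went from 111, 112 and 123 CPM to 97.8, 91 and 98.9 CPM (-0.26, SE 0.08). Neither overlapped between the groups.

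Genes that NOTCH1 activates in T-cell leukaemia were mixed. NOTCH1 itself, whose activated receptor is a common driver of this leukaemia, stood at 1193, 733 and 1075 CPM in replicate 2 and 942, 603 and 696 CPM in replicate 3 (log2 difference -0.42, SE 0.08). DTX1, a target and regulator of the pathway, went from 417, 376 and 437 CPM to 333, 276 and 276 CPM (-0.48, SE 0.08). Of 14 targets tested 3 fell, NOTCH1, DTX1 and MYC, and 1 rose, LZTFL1 (0.23), against 8.25% and 9.47% of all genes. The call of LZTFL1 was lost when any 1 library was left out. The other 10 did not pass, and the list's median was -0.06.

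Proteasome and cytosolic ribosomal protein genes had smaller differences. Of 31 proteasome genes 9 fell and none rose, with a median of -0.19, against 8.25% of all genes called lower. The count depended on the fit: library size alone as the scaling gave 3 lower and 1 higher, all 9 libraries 16 lower and GC and length offsets 22 lower. PSMB6, a catalytic subunit, went from 46, 49.8 and 53.9 CPM to 41.6, 39 and 40.3 CPM (-0.30, SE 0.09, edgeR adjusted p = 0.00484) in the fit to all 6 libraries. The list's median was -0.08 in the NTC pair against -0.24 and -0.20 in the siRNA1 and siRNA2 pairs. By edgeR no proteasome gene passed without either or both libraries labelled siRNA1 or without the label term, and 2 and 4 were lower without the siRNA2 library of replicate 2 or of replicate 3, while leaving out the NTC library of replicate 3 gave 5. Of 82 cytosolic ribosomal protein genes 6 rose and 11 fell, and 17 lay lower without overlap, against 9.47%, 8.25% and 13.2% of all genes tested. RPL12, of the large subunit, went from 562, 614 and 613 CPM to 511, 459.8 and 418 CPM (-0.37, SE 0.08), which did not pass without either library labelled siRNA1 or without the siRNA2 library of replicate 2.

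Several transcripts of the mitochondrial genome were lower in replicate 3, most of them of respiratory complex I. Of 13 genes tested 7 fell and none rose, against 8.25% and 9.47% of all genes tested. Complex I subunits made up 7 of the 13, and 6 of these fell. The other lower gene was MT-ATP8, of complex V, from 419, 600 and 565 CPM to 377, 363 and 377 CPM. Leaving out either library labelled siRNA1 gave 4 lower, and leaving out the NTC library of replicate 2 gave 10. MT-ND1 stood at 2014, 2681 and 2471 CPM in replicate 2 and 1585, 1674 and 1528 CPM in replicate 3 (log2 difference -0.57, SE 0.08, edgeR adjusted p = 2.12e-09). MT-ND2, another subunit, went from 4349, 5521 and 5224 CPM to 3384, 3408 and 3304 CPM (-0.57, SE 0.09). MT-CO1, of complex IV and read from the same strand, stood at 5684, 6915 and 6534 CPM and 6734, 7059.7 and 6441 CPM (0.08, edgeR adjusted p = 0.544), and none of the 3 complex IV genes passed. MT-RNR2, the large mitochondrial ribosomal RNA, went from 3479, 5015 and 4568 CPM to 2658, 2931 and 2893 CPM (-0.61, SE 0.08). The list's median was -0.11 in the NTC pair and -0.32 and -0.37 in the others, and the fall of MT-ND1 was -0.35 in the NTC pair. Of 41 nuclear-encoded respiratory chain genes 4 rose and 7 fell, against 9.47% and 8.25% of all genes tested.

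Genes named for a small p, a large fold or a high level outside these lists were of several kinds. H19, an imprinted noncoding RNA, stood at 350.2, 356 and 465 CPM in replicate 2 and 191, 124 and 154 CPM in replicate 3 and had the smallest p of all (log2 difference -1.33, SE 0.08, edgeR adjusted p = 3.37e-51, or 7.71e-09 with all 9 libraries in the fit). LINC00861, a lymphoid noncoding RNA, went from 652, 792 and 596 CPM to 1062, 1741 and 1491 CPM (1.06, SE 0.08), and its rise was smallest in the NTC pair (0.70). ATF5, a bZIP factor of stress responses, went from 91.2, 93.8 and 86.8 CPM to 40.0, 38.9 and 32.3 CPM (-1.29, SE 0.09). In each of the 3 genes the groups were well apart. TRIB3, a pseudokinase induced by ATF4 and CHOP, went from 41.5, 63.8 and 68.7 CPM to 21.1, 23.9 and 24.6 CPM (-1.29, SE 0.09). F2RL3, the thrombin receptor PAR4, had the largest negative difference among called genes with a mean of at least 1 CPM and 1 sign in all labels, from 5.55, 7.96 and 5.81 CPM to 1.7, 3.3 and 1.31 CPM (-1.66, SE 0.13). ANXA2, a membrane-binding annexin, went from 32, 36.3 and 33.5 CPM to 18.4, 18.3 and 16.3 CPM (-0.94, SE 0.09).

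**Figure D4:**
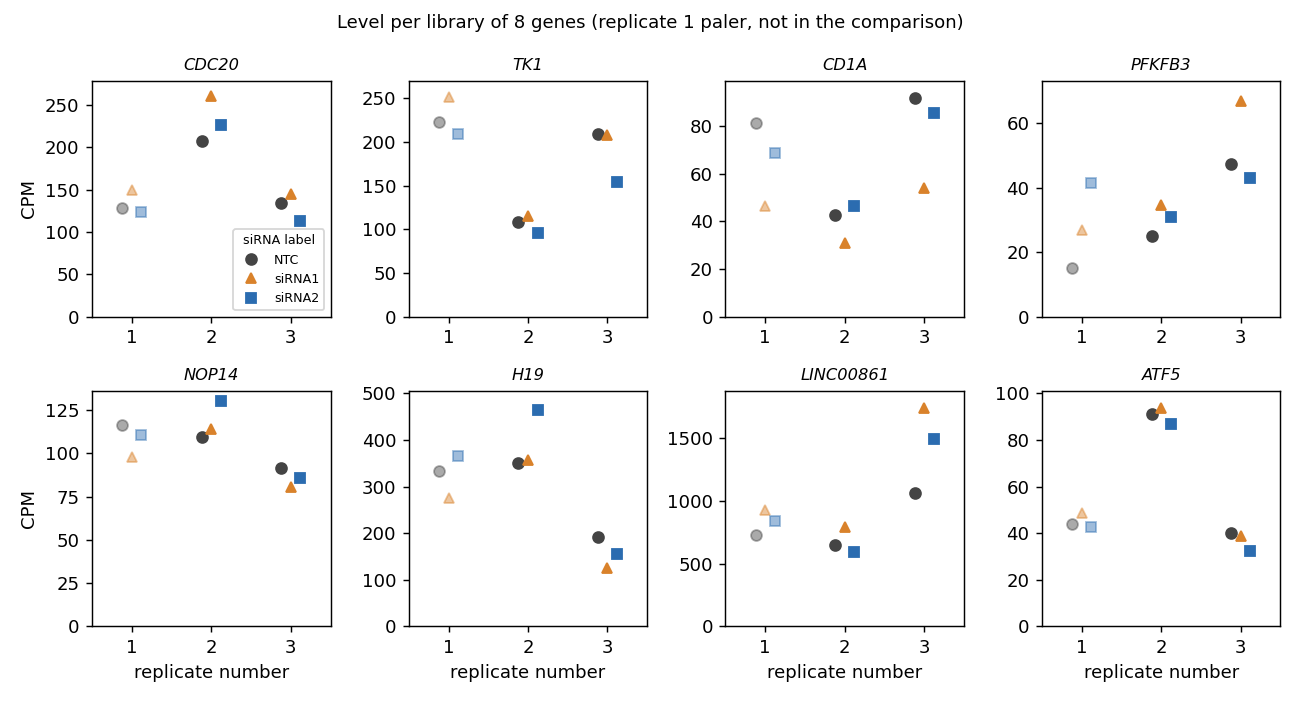
CPM of 8 genes in each of the 9 libraries by replicate number, on linear axes that start at 0, with the marker giving the siRNA label; the paler replicate 1 libraries are not in the comparison. CDC20, NOP14, H19 and ATF5 are lower and TK1, CD1A, PFKFB3 and LINC00861 higher in replicate 3 than in replicate 2 within each label, and replicate 1 lies near replicate 3 for CDC20, TK1 and ATF5 and nearer to replicate 2 for H19 and LINC00861.

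Large folds were also found among genes of few CPM. UBXN10-AS1, an antisense transcript, went from 1.18, 0.534 and 0.701 CPM to 3.42, 1.72 and 2.84 CPM (1.73, SE 0.17), and LINC00892 from 0.581, 0.872 and 0.764 CPM to 1.63, 2.86 and 1.61 CPM (1.45, SE 0.18). FPR3, a formyl peptide receptor, went from 0.471, 0.807 and 0.651 CPM to 1.27, 1.89 and 1.71 CPM (1.34, SE 0.18). DMC1, a meiotic recombinase, went from 0.691, 0.589 and 0.714 CPM to 1.39, 1.35 and 1.84 CPM (1.19, SE 0.19). Each of these 4 was higher in all 3 replicate 3 libraries than in any of replicate 2. On the lower side, CPAMD8 went from 1.52, 2.32 and 1.87 CPM to 0.455, 0.956 and 0.481 CPM (-1.60, SE 0.18), and FRG1-DT, a divergent transcript, from 3.18, 2.58 and 2.47 CPM to 0.981, 1.03 and 0.88 CPM (-1.50, SE 0.16). SGPP2, a sphingosine phosphate phosphatase, went from 5.49, 5.16 and 4.53 CPM to 2.08, 1.94 and 2.34 CPM (-1.26, SE 0.13).

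NEAT1 and MALAT1, nuclear noncoding RNAs, were higher in the fit, and their values differed between the pairs. NEAT1, the scaffold of paraspeckles, stood at 125, 139 and 96.1 CPM in replicate 2 and 130.4, 294 and 167 CPM in replicate 3 (log2 difference 0.65, SE 0.08), with 0.06 in the NTC pair, 1.08 in the siRNA1 pair and 0.80 in the siRNA2 pair. MALAT1, of nuclear speckles, went from 182, 155 and 163 CPM to 169, 237 and 316 CPM (0.49, SE 0.08) and was lower in replicate 3 within the NTC label (-0.11). Neither passed by DESeq2 or without the label term. MALAT1 also did not pass without either library labelled siRNA2, and its value ranged from 0.25 to 0.78 over the alternatives (adjusted p up to 0.385), while that of NEAT1 ranged from 0.43 to 0.94. The siRNA1 and siRNA2 pairs are those in which the share of reads in no annotated feature was higher in replicate 3. Its part in these differences was not tested.

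The ATF4 and amino acid response genes did not move as one. Of 28 tested, 5 rose and 4 fell, with a median of 0.06, against 9.47% and 8.25% of all genes. Beside TRIB3 the lower ones were DDIT3, which encodes CHOP (-0.50), the amino acid transporter SLC7A5 (-0.28) and the tryptophanyl-tRNA synthetase WARS, from 119, 122 and 128 CPM to 92.4, 81.1 and 84.4 CPM (-0.52, SE 0.08). The higher ones included PHGDH, the first enzyme of serine synthesis, from 205, 205 and 182 CPM to 308, 269 and 238 CPM (0.45, SE 0.08). ATF4 itself (-0.03) and ASNS, asparagine synthetase (0.08), did not pass. The window search for its element TGATGNAA found it in 2 of 5 higher genes, 5 of 19 other members and 3.62% of all windows.

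Of 43 interferon-stimulated genes tested 10 rose and 1 fell, against 9.47% and 8.25% of all genes, with a median of 0.05, and 32 did not pass. DDX60, an RNA sensor helicase, went from 46.5, 47.2 and 40.2 CPM to 61.2, 61 and 64.5 CPM (0.48, SE 0.09). HERC5, the ligase for ISG15, went from 14.2, 11.9 and 13.8 CPM to 20.1, 14.6 and 20.2 CPM (0.45, SE 0.10). ISG15 (-0.02) and MX1 (-0.14) were among those that did not pass.

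Immediate-early genes split as well: of 28 tested 3 rose and 5 fell, against 9.47% and 8.25% of all genes. JUN, a subunit of AP-1, went from 14.1, 12 and 10.9 CPM to 25.4, 24.8 and 15 CPM (0.79, SE 0.10), and NR4A2, an orphan nuclear receptor, from 1.11, 1.53 and 1.33 CPM to 1.91, 2.72 and 2.97 CPM (0.92, SE 0.15). KLF6, a zinc finger factor, fell from 391, 407 and 391 CPM to 308, 298 and 286 CPM (-0.41, SE 0.08). The cAMP element TGACGTCA was in none of the 3 lower genes with a window, in 2 of 18 other members and in 1.85% of all windows. TNF, among 20 NF-kappa-B targets of which 4 rose and 3 fell, went from 50.6, 76.6 and 68.6 CPM to 41.5, 46.3 and 38 CPM (-0.62, SE 0.09). Of 22 genes of cytokine feedback and STAT5 targets 3 fell and none rose, against 8.25% and 9.47% of all genes. The 3 were led by the cytokine OSM, from 37.6, 24.9 and 38.4 CPM to 22.9, 17.1 and 22.8 CPM (-0.67, SE 0.09). The groups did not overlap for these 2 genes.

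Among T-lineage transcription factors 3 of 27 rose and 5 fell, against 9.47% and 8.25% of all genes. ID3, an inhibitor of E proteins, went from 61, 87 and 56.5 CPM to 93, 132 and 75.8 CPM (0.55, SE 0.08), while its relative ID2 went from 5.46, 6.71 and 6.24 CPM to 3.21, 4.87 and 3.88 CPM (-0.63, SE 0.12). Of 33 genes of the T-cell receptor and its proximal signalling 4 rose and 1 fell, against the same shares. CD28, a costimulatory receptor, went from 37, 41.4 and 32.8 CPM to 44.3, 55.4 and 47.5 CPM (0.40, SE 0.09). FOXO targets and quiescence genes had 7 of 21 higher and 3 lower, with a median of 0.16, against 9.47% and 8.25% of all genes. They share members such as CCR7 and S1PR1 with the thymocyte list. Without either library labelled siRNA1 2 were higher and 1 lower, and without the label term 1 and 1. Among metal-handling genes SLC30A1, the zinc exporter, went from 35.2, 23.6 and 23.8 CPM to 18.4, 13.7 and 17.1 CPM (-0.74, SE 0.09), MTF1, the metal-sensing factor, was lower (-0.40, SE 0.09) and so was the metallothionein MT1X (-0.55, SE 0.12), though not without either library labelled siRNA1. SLC39A10, a zinc importer, rose (0.51, SE 0.09).

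In the remaining lists few members passed. Among 14 MHC class I genes B2M, the common light chain, had a log2 difference of 0.03 and HLA-E one of 0.11, neither past the test, and the list's median was 0.06. In each of 2 lists, 1 gene rose and 1 fell, among 35 SR and hnRNP splicing factors and among 41 histone genes. Of 23 sterol genes 2 rose and 1 fell, as among 18 heat shock chaperones. Of 22 p53 targets 3 rose and 1 fell, against 9.47% and 8.25% of all genes.

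The replicate 1 libraries give a further level for the same genes. Of the 1720 higher genes, the mean of replicate 1 lay between replicates 2 and 3 for 1007, above both for 359 and below both for 354. Of the 1499 lower genes it lay between for 986. The lists took different places: for replication genes replicate 1 was above both others in 40 of 43, with a median of 0.45 over replicate 2 and 0.16 over replicate 3. For mitotic genes it was close to replicate 3 (median 0.04 from it and -0.32 from replicate 2). For thymocyte markers it was close to replicate 2 (median 0.02 from it and -0.34 from replicate 3), and for hypoxia genes its median was -0.27 from replicate 3. Transcripts of the mitochondrial genome were above both in 11 of 13, with a median of 0.40 over replicate 3. No single ordering of the replicate numbers therefore held across the gene groups.

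The files hold a second division of the libraries that crosses the replicate numbers. The share of strand-assigned counts in the first of the deposited strand columns was 50.56 to 50.63% in 5 libraries, those of replicate 1 and the siRNA1 and siRNA2 libraries of replicate 2, and 50.23 to 50.38% in the other 4, the NTC library of replicate 2 and those of replicate 3. The labels name nothing that sets these libraries apart. HSPE1, a short mitochondrial chaperone gene with processed copies, followed this division, at 37.5, 14.8 and 17 CPM in replicate 2, 35.2, 29.6 and 40.7 CPM in replicate 3 and 18.8, 17.4 and 17.4 CPM in replicate 1. So did MTCO1P12, a nuclear copy of a mitochondrial gene, at 16.2, 7.9 and 7.3, 23.3, 20.4 and 19.4 and 9.88, 8.84 and 8.0 CPM, and RPL34, a ribosomal protein gene, at 377, 266 and 267, 398, 374 and 381 and 267, 282 and 237 CPM. Such genes can share reads with near-identical copies, and their values are uncertain for that reason. MT-ATP8 followed the division too, at 419, 600 and 565, 377, 363 and 377 and 762, 665 and 667 CPM in replicates 2, 3 and 1. So did the share of counts in mitochondrial mRNA, at 4.06, 4.98 and 4.65% in replicate 2. It was 4.02, 4.32 and 3.88% in replicate 3 and 5.42, 5.35 and 5.02% in replicate 1. The NTC pair lies within 1 side of the division, so its differences are values within that side: medians of -0.30 for mitotic, 0.38 for replication, 0.36 for hypoxia, 0.38 for thymocyte and -0.20 for nucleolar genes stand there, against -0.08 for proteasome and -0.11 for mitochondrial genome genes. CDC20 and TK1 differed between replicates 2 and 3 in that pair as in the others. The NTC pair is a single pair that also differs from the others in siRNA label. The division and the label therefore cannot be told apart here, and the part of the division in any list was not tested.

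**Figure D5:**
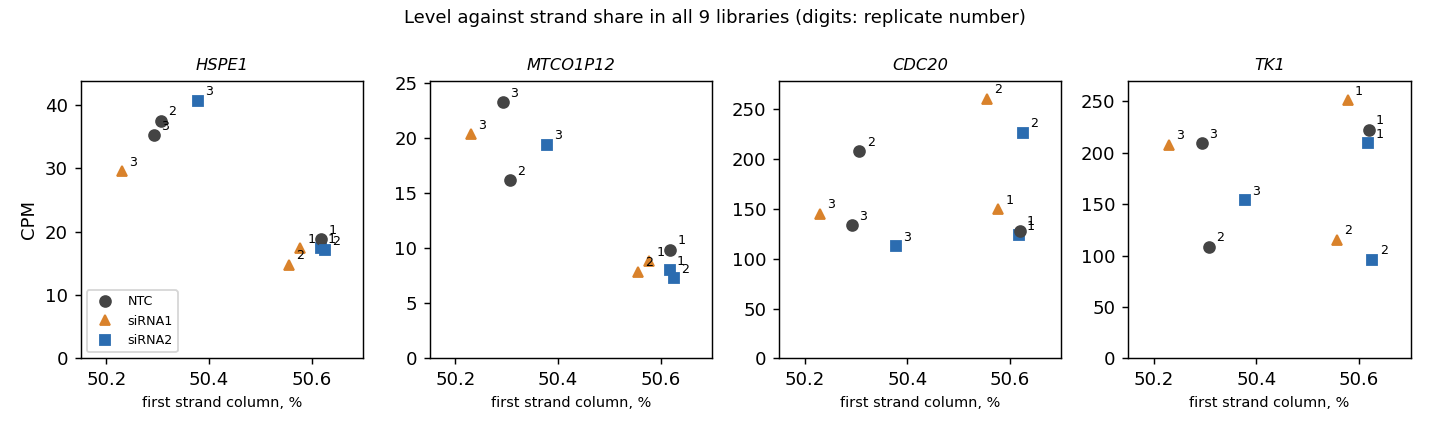
CPM of 4 genes in all 9 libraries against the share of strand-assigned counts in the first strand column, with the marker giving the siRNA label and the digit the replicate number. HSPE1 and MTCO1P12 are high in the 4 libraries at 50.23 to 50.38%, whereas CDC20 is above 200 CPM in the 3 replicate 2 libraries on both sides and TK1 is below 120 CPM in the same 3.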

How the data were processed

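The 9 RNA-seq libraries of ALL-SIL cells were made from poly(A) RNA with a kit that does not mark strand, per the labels' protocols, and aligned to GRCh38, per the submitters' processing notes. The authors deposited whole-number read counts per gene, in a layout like that of STAR's gene counts, with 1 column without regard to strand and 2 strand columns; no source used here gives the aligner's version or the annotation. The column without strand was used, and its 4 summary lines (unmapped, multimapping, no feature, ambiguous) were left out of totals and tests. Of 58096 gene identifiers, 57492 matched GENCODE release 29, which gave symbols and biotypes.

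Genes were kept by filterByExpr within replicate numbers (minimum count 10, minimum total 15). Replicate 3 was compared with replicate 2 in the 6 libraries with edgeR 4.0.16 (TMM factors, siRNA label as covariate, quasi-likelihood F test, Benjamini-Hochberg over 18171 genes, threshold 0.05). The SE is the log2 fold change divided by the root of F. With 2 residual degrees of freedom the prior degrees of freedom came out infinite, so all genes share 1 trend of spread (biological coefficient of variation 7.50%) and very small p-values rest on that assumption. Per-label differences are of log2 CPM with a prior count of 2. On simulated data of 17898 genes, the fit recovered 100 of 100 genes changed 2-fold and 46 of 100 changed 1.5-fold, with 13 false calls. Those counts were drawn independently for each gene from the spread of this fit, with no division of libraries and no GC effect. They give no rate of false calls among the 3219 genes called in the real data. The alternatives were other scaling, filters, tools (DESeq2 1.42.0, limma-voom 3.58.1), no covariate, all 9 libraries, the strand sum, GC and length offsets and left-out libraries.

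The comparison, its lists and its members were chosen with earlier results of these data known. Named genes are TLX1; among genes past the threshold with a mean of at least 1 CPM and the same sign in all labels, the 12 largest folds, 5 smallest p and 3 highest levels each way; 4 long noncoding genes each way with at least 0.5 CPM; and up to 4 members per list by p, or the 2 highest where none passed. Genes, subgroups and promoter stretches outside this rule were chosen after their values were seen. Replicate 1 libraries and strand columns are given as values only.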

Additional observations from a re-analysis of the deposited data

Results flagged for a closer look

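Within the NTC label TLX1 was higher in replicate 3 by 0.13 on the log2 scale, whereas it was lower within the libraries labelled siRNA1 (-0.24) and siRNA2 (-0.36). The share of reads in no annotated feature changed by -0.87 percentage points in the NTC pair and by 1.70 and 1.86 points in the siRNA1 and siRNA2 pairs. The share of reads in genes changed by 0.64 points in the NTC pair and by -2.10 and -1.99 points in the other pairs. Across genes, the difference of the siRNA2 pair had a Spearman relation of -0.36 with GC content, against 0.05 in the NTC pair and 0.12 in the siRNA1 pair. Each of these was noted because 1 label moved opposite to the others; with 1 pair per label none of these differences was tested.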

How the results depend on the processing

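No paired analysis was possible with the replicate number as a block, because the replicate number is what is compared. Pairing by siRNA label is part of the reported model, and its unpaired counterpart, without the label term, gave 706 calls in place of 3219. The calls became 1001 without both libraries labelled siRNA1; leaving out single libraries gave 988 to 2408, the latter without the NTC library of replicate 2. DESeq2 gave 2307, no filter 2500, all 9 libraries 3825 and GC and length offsets 4700. The median of the hypoxia genes was 0.45 with library size alone, 0.37 without both NTC libraries, 0.38 without both siRNA2 libraries and 0.38 to 0.42 without single libraries. That of the thymocyte markers was 0.50 with library size alone, 0.40 with a filter of 1 CPM, 0.40 without both NTC libraries, 0.35 without both siRNA1 libraries and 0.34 to 0.42 without single libraries. The medians of the other 6 lists moved by less than the spread between labels in the alternatives run, and no sign reversed. Of 150 named genes past the threshold, 147 passed with all 9 libraries, 129 by DESeq2, 97 to 126 without single libraries and 79 without the label term. With the label as a term of the model, leaving out 1 library of a label nearly amounts to leaving out its pair. An arm with 2 libraries is assumed to vary like the rest. What depth limits was not tested. The cause of the changed counts was not tested.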
